A study of Mus musculus with 8 samples.

Results

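A set of 9 genes of diacylglycerol signalling was followed across 8 libraries of ribosome-bound RNA from the mouse striatum: the phospholipase C beta genes Plcb1, Plcb3 and Plcb4, the protein kinase C genes Prkca, Prkcb and Prkce, and the diacylglycerol kinase genes Dgkb, Dgkz and Dgki. They were chosen by symbol, with earlier results of these data known, and all 9 were found among the 32531 genes listed in each library. Of these, 8 had enough counts to be tested between regions, and Plcb3 did not. The libraries came from dorsal striatum (4) and accumbens nucleus (4) of untreated Drd1-EGFP/Rpl10a (CP73) mice, a translating ribosome affinity purification (TRAP) line, all aged beyond 20 months. In this line the ribosomal protein L10a, fused to a green fluorescent protein, is driven by the Drd1 promoter, so that polysomes of cells expressing the dopamine D1 receptor can be captured with anti-EGFP antibodies. All groups thus share the transgene, the lower bound of age and the capture step, and every comparison is between regions. Exact ages are not given in the labels. The labels number the replicates 1 to 4 in each region without saying whether a library came from a single mouse or from pooled mice. The p-values therefore refer to variation among these libraries, which may be technical.

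These genes belong to a relay that runs from receptors coupled to the G protein Gq. Phospholipase C beta enzymes, switched on by Gq, split a membrane phosphoinositide into inositol trisphosphate, which releases calcium from stores, and diacylglycerol, which stays in the membrane. Diacylglycerol recruits protein kinase C, which phosphorylates channels, receptors and cytoskeletal proteins, and diacylglycerol kinases end the signal by turning the lipid into phosphatidic acid. In spiny projection neurons of the striatum the relay carries glutamate, acetylcholine and serotonin input from Gq-coupled receptors.

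In accumbens, 4 of the 8 tested genes were lower than in dorsal striatum at an adjusted p under 0.05: Prkcb, Plcb1, Dgkb and Dgki. They include the most abundant of the chosen genes in each of the 3 families. No chosen gene was called higher, and Dgkz was the single gene of the 8 with a positive difference. Tests were edgeR's quasi-likelihood F test with Benjamini-Hochberg adjustment over the 12467 genes tested. In that test 3.72% of all genes were called in either direction and 2.12% were called lower in accumbens. The median log2 fold change (accumbens over dorsal striatum) was -0.50 over the 8 genes and 0.02 over all genes tested. The 4 dorsal values lay wholly above the 4 accumbens values for 5 of the 8, the 4 called genes and Prkce. Over all genes tested, the regions did not overlap for 9.69%, and 5.18% did so with accumbens lower. The data are bulk measurements, in which fewer cells of a type and less RNA per cell cannot be told apart.

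**Figure D1:**
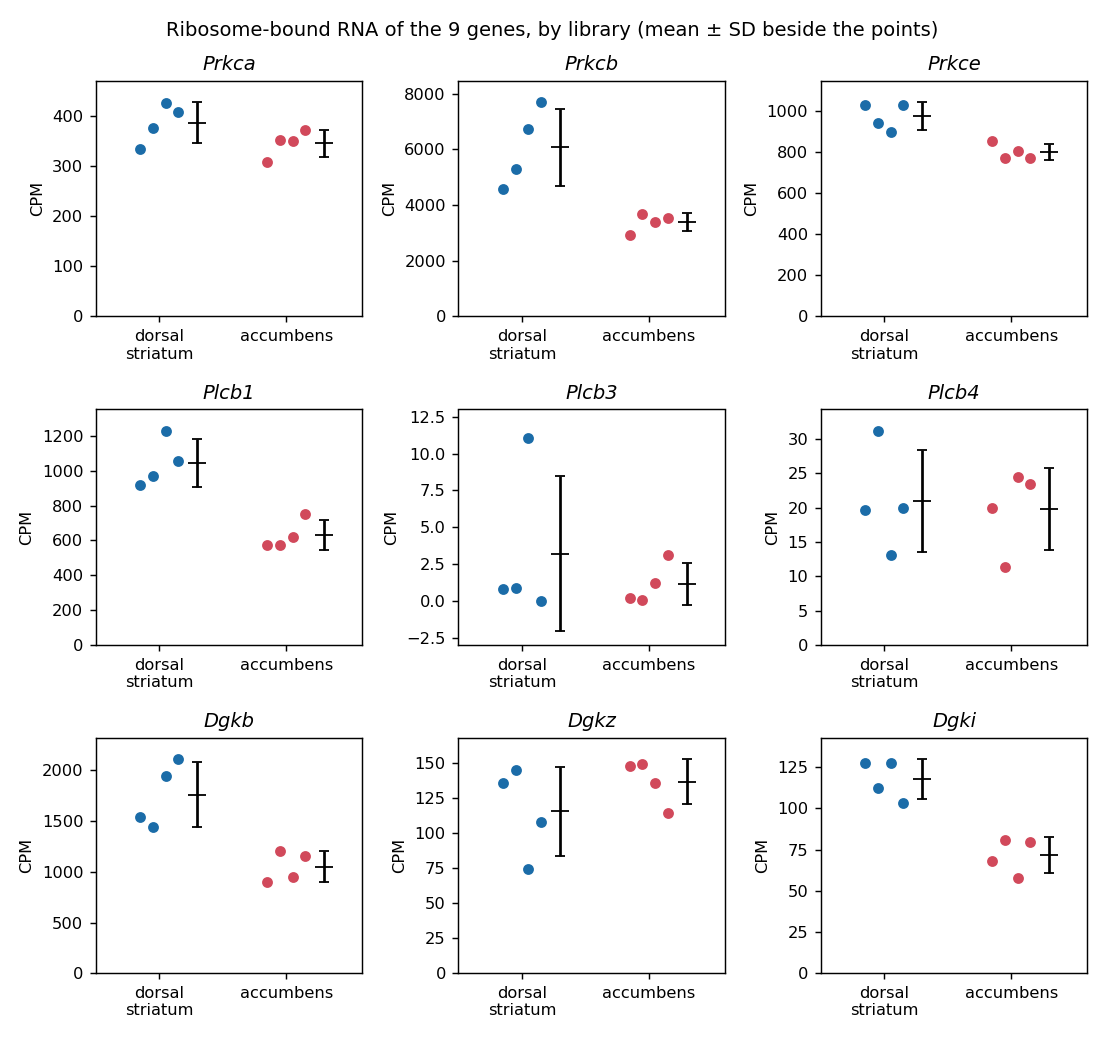
Counts scaled to a common library size (CPM, linear axes that start at 0 except for Plcb3) of the 9 genes in each library, dorsal striatum in blue and accumbens in red, with the mean and SD (n = 4) beside the points. For Prkcb, Prkce, Plcb1, Dgkb and Dgki every blue point lies above every red point, and the lone high Plcb3 point is dorsal striatum 3 at 11.1 CPM.

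Dorsal libraries held 7466970 to 10363145 gene counts and accumbens libraries 10831937 to 12639641. On these unscaled totals, 3 counts corresponded to between 0.237 and 0.402 CPM. The cell type was checked against marker genes. Drd1 itself averaged 605 ± 60.9 CPM over the dorsal and 435 ± 86.5 CPM over the accumbens libraries (SD of 4 libraries, log2 fold change -0.47 ± 0.14 SE, edgeR adjusted p = 0.0750), and it was called lower by DESeq2 (adjusted p = 0.0329) and limma-voom (0.0187). The summed level of 8 direct-pathway markers ran from 2282 to 2585 and from 1943 to 2192 CPM. In edgeR's test the transcription regulators Eya1 (875 ± 68.6 and 599.5 ± 57.2 CPM, adjusted p = 0.00849) and Ebf1 (100.02 ± 5.76 and 42.2 ± 10.4 CPM, adjusted p = 0.000860) were called lower in accumbens, and Pdyn, the prodynorphin gene, was called higher (211 ± 37.9 and 427 ± 37.2 CPM, adjusted p = 0.000370). Markers of other cells were present. The sum of 6 markers of indirect-pathway neurons, which use the D2 receptor, was 223 to 333 CPM in dorsal and 628 to 908 CPM in accumbens libraries, with Drd2, Penk and Adora2a called higher there. Astrocyte markers summed to 199 to 379 and 262 to 706 CPM, oligodendrocyte markers to 123 to 198 and 129 to 331 CPM, and microglial markers to 0.985 to 4.35 and 4.80 to 17.3 CPM, with C1qa at 0 in all 8 libraries. Most of the astrocyte sum was Slc1a2, the one marker of these 3 glial types that edgeR called. It was higher in accumbens with overlapping ranges (230 ± 62.3 and 433 ± 173 CPM, edgeR adjusted p = 0.0452). DESeq2 and limma-voom did not call Slc1a2. Cortical excitatory markers summed to 4.43 to 106 and 21.1 to 99.5 CPM, and subcortical ones, mostly Rora, to 145 to 177 and 53.1 to 103 CPM. The summed direct-pathway, indirect-pathway, microglial and subcortical markers did not overlap between regions. The part of the neuronal markers in the results was not tested, and the values with a glial covariate are given with the calls.

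Among the phospholipases, Plcb1, the main beta isoform of forebrain neurons, was lower in accumbens. The gene lies on chromosome 2 (GRCm38, 134786067 to 135475258, plus strand). Its level was 918, 973, 1229.6 and 1059 CPM in dorsal striatum 1 to 4, and 574, 575, 621 and 753 CPM in accumbens 1 to 4. The lowest dorsal library stood above the highest accumbens library. Means were 1045 ± 136 and 631 ± 84.4 CPM (SD, n = 4 each), a log2 fold change of -0.73 ± 0.13 SE (edgeR adjusted p = 0.00221). Plcb4, best known from cerebellum, thalamus and retina, starts 183752 bases beyond the end of Plcb1 on the same strand (135659011 to 136014593). It was expressed at a far lower level, with 19.6, 31.2, 13.1 and 19.9 CPM in the dorsal and 19.9, 11.3, 24.5 and 23.4 CPM in the accumbens libraries. The ranges overlapped, and the difference was -0.08 ± 0.32 on the log2 scale (edgeR adjusted p = 0.950), with a sign that turned when dorsal striatum 2 (0.17) or accumbens 2 (0.11) was left out. Plcb3 (chromosome 19, 6952325 to 6976470, minus strand), an isoform found in many tissues, was close to the detection floor, with 7, 8, 80 and 0 counts in dorsal and 2, 1, 15 and 38 counts in accumbens libraries. A single library, dorsal striatum 3 at 11.1 CPM, held most of the dorsal signal. The count of 0 in dorsal striatum 4 allows a level of up to 0.289 CPM on the unscaled library total, counting error only.

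Among the kinases that diacylglycerol activates, Prkcb (chromosome 7, 122288751 to 122634402, plus strand), one of the conventional isoforms that also need calcium, had the eighth highest mean CPM of all genes tested. It measured 4594, 5297, 6723 and 7691 CPM in dorsal striatum, against 2928, 3699, 3381 and 3539 CPM in accumbens. Dorsal libraries differed from each other by up to 1.67-fold and accumbens libraries by up to 1.26-fold, and the regions did not overlap. Mean levels were 6076 ± 1394 and 3387 ± 332 CPM (SD, n = 4 each), and the log2 fold change was -0.84 ± 0.14 SE (edgeR adjusted p = 0.00124). This was the smallest adjusted p of the 9 genes.

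Prkca, another conventional isoform (chromosome 11, 107933387 to 108343928, minus strand), measured 335, 377, 427 and 409 CPM in dorsal and 308, 352, 351 and 372 CPM in accumbens libraries. The ranges overlapped, and the difference of -0.16 ± 0.12 on the log2 scale did not pass the test (edgeR adjusted p = 0.616). Prkce, an isoform that responds to diacylglycerol without calcium (chromosome 17, 86167785 to 86657919, plus strand), read 1028, 940.5, 896 and 1029 CPM against 852, 768, 801 and 770.5 CPM. Its regions did not overlap, yet the difference was small, at -0.29 ± 0.11 on the log2 scale, and did not pass adjustment (unadjusted p = 0.0144, adjusted p = 0.175, edgeR). DESeq2 gave it an adjusted p of 0.0903.

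Of the kinases that remove diacylglycerol, Dgkb (chromosome 12, 37817726 to 38634239, plus strand), a calcium-binding isoform long known for its high level in striatum, ranked 59 of 12467 by mean CPM. It was at 1545, 1443, 1946 and 2109.6 CPM in dorsal striatum, and at 897, 1207, 951 and 1155 CPM in accumbens. All 4 dorsal libraries stood above all 4 accumbens libraries. The means, 1761 ± 318 and 1053 ± 152 CPM (SD, n = 4 each), gave a log2 fold change of -0.74 ± 0.14 SE (edgeR adjusted p = 0.00359).

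Dgki and Dgkz encode a closely related pair that share ankyrin repeats and a nuclear localization signal. Dgki (chromosome 6, 36846022 to 37300184, minus strand) was at 128, 112, 127 and 103 CPM in dorsal and at 68.1, 80.8, 57.9 and 79.6 CPM in accumbens libraries. Again no accumbens library reached a dorsal one, and the log2 fold change was -0.71 ± 0.16 SE (edgeR adjusted p = 0.0174). Dgkz (chromosome 2, 91932824 to 91975864, minus strand) was at 135, 144, 74.3 and 108 CPM against 147, 149, 135 and 114 CPM. Here the regions overlapped, with dorsal striatum 3 lowest, and the log2 fold change was 0.24 ± 0.19 SE (edgeR adjusted p = 0.636).

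Not all 4 calls were equally firm. Prkcb and Plcb1 stayed below an adjusted p of 0.05 in each of the 18 alternative analyses. With the level of 15 astrocyte, oligodendrocyte and microglial markers as a covariate, Prkcb (log2 fold change -0.60) and Plcb1 (-0.67) each had an edgeR adjusted p of 0.0401, while Dgkb (-0.52, adjusted p = 0.123) and Dgki (-0.79, adjusted p = 0.0788) were no longer called. On the log2 scale against the mean of the 8 libraries, those glial markers were at -0.27, 0.40, -0.32 and -1.04 in dorsal striatum 1 to 4. In accumbens 1 to 4 they were at 0.70, 0.24, -0.06 and 0.35. Dorsal striatum 4, lowest in these markers, had the highest Prkcb and Dgkb levels, and accumbens 1, highest in them, had the lowest. Within dorsal striatum the order of Dgkb was the reverse of that of the markers, and the order of Prkcb was not. Within accumbens neither gene had the reverse order. A link was not tested. Dgki also lost its call when dorsal striatum 1 (edgeR adjusted p = 0.0680), dorsal striatum 3 (0.0576), accumbens 1 (0.0650) or accumbens 3 (0.0704) was left out.

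**Figure D2:**
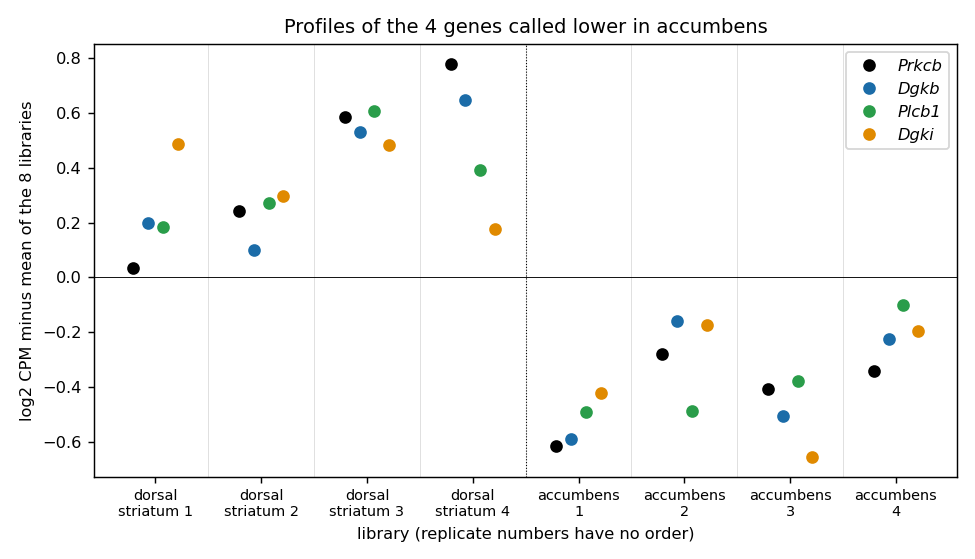
Level of the 4 called genes in each library, as log2 CPM minus the gene's mean over the 8 libraries, with 1 colour per gene. All points of dorsal striatum lie above 0 and all points of accumbens below it, and Prkcb and Dgkb are both highest in dorsal striatum 4 and lowest in accumbens 1.

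The profile of Prkcb over the 8 libraries was closest to that of Dgkb. Likeness was taken as the root mean square difference of centred log2 CPM, among the 6268 tested genes averaging at least 20 CPM. By this measure Dgkb differed from Prkcb by 0.115 and ranked first. Mbtd1, which encodes a chromatin-binding protein, came next at 0.117, and Lmbr1, a membrane protein gene whose intron holds the limb enhancer of Shh, followed at 0.125. Plcb1 ranked 35th at 0.191 and Dgki 294th at 0.297, while Prkca and Prkce ranked 695th and 828th. The libraries behind each profile are the same 8, so shared depth and composition enter every such value, and no test was attached to it. Profiles were centred over both regions together, so the regional difference enters the measure as well. The log2 fold changes were -0.74 for Dgkb, -0.71 for Mbtd1 and -0.89 for Lmbr1, and the likeness in part restates the calls.

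Promoter sequence was read for the called genes from RefSeq (GRCm38.p6), which held windows of 250 bases before the annotated start for 8 of the 9 genes (not Prkce), 10 windows in all. Bases that fall in an exon of the same gene in GENCODE M21 are left out of what is printed. All 250 bases of the Prkcb window lie in such an exon, and none are shown. The Dgkb window (chr12:37879924-37880173, plus strand), the first 153 bases of the Plcb1 window (chr2:134785914-134786066, plus strand) and the first 42 bases of the Dgki window (chr6:37300185-37300226, minus strand) are given 5′ to 3′, with CpG dinucleotides in capitals, to show how the base composition upstream varies among genes with like differences. GENCODE places the start of Dgkb farther upstream, so that this window is intronic there.
Dgkb: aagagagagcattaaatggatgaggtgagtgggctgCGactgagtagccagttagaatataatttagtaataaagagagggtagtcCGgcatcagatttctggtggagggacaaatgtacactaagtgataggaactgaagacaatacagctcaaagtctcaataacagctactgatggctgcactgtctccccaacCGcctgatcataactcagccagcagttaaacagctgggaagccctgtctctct
Plcb1: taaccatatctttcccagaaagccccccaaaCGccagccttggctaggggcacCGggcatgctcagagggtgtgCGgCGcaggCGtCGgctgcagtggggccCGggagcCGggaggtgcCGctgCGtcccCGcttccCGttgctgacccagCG
Dgki: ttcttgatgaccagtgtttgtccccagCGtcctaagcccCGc

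Over its full 250 bases the Dgkb window held 3 CpG dinucleotides and 45.6% G and C, against 22 and 71.2% for Plcb1, 17 and 65.2% for Prkcb, and 11 and 60.8% for Dgki. The motifs were searched on both strands: TGACG (the cyclic AMP response half-site, present in 17.8% of 32851 mouse windows of the same length), CCAAT (33.9%), the GC box GGGCGG (32.7%), the TATA box TATAAA (12.4%), the E-box motif CANNTG (66.2%) and the EGR site GCGGGGGCG (2.57%), of which the GC box and the EGR site can share bases. No motif searched was present in all 4 windows. The GC box occurred in the Prkcb and Plcb1 windows, the E-box in those of Prkcb (4 matches) and Dgkb (2), and CCAAT in that of Dgki (2). The matches of Prkcb, Plcb1 and Dgki lie in GENCODE exons of the same gene, outside the bases printed. Those of Dgkb lie in the window that is intronic in GENCODE. The cyclic AMP response half-site, the TATA box and the EGR site matched none of the 10 windows. A match describes these letters only, and no match says only that they are not in the window.

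Levels can be compared between genes only roughly once divided by exon length, here the union of all annotated exons of a gene. On that scale, in CPM per kb of exon, Prkcb led both regions by a wide margin, at 794 ± 182 in the dorsal and 443 ± 43.4 in the accumbens libraries (SD, n = 4). Next in dorsal striatum came Dgkb at 155 ± 28.0 and Prkce at 134 ± 9.09, whose ranges overlapped, then Plcb1 at 94.0 ± 12.3, Prkca at 43.0 ± 4.52, and Dgki (18.8 ± 1.94) and Dgkz (18.4 ± 5.04), whose ranges again overlapped. Plcb4, at 2.34 ± 0.836, and Plcb3, at 0.458 ± 0.757, were lowest and overlapped. In accumbens, Prkce (110 ± 5.41) stood ahead of Dgkb (92.5 ± 13.3) with overlapping ranges, and Dgkz (21.8 ± 2.54) ahead of Dgki (11.5 ± 1.73) without overlap. Plcb1, at 56.8 ± 7.59, and Prkca, at 38.5 ± 2.98, were again next in order.

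**Figure D3:**
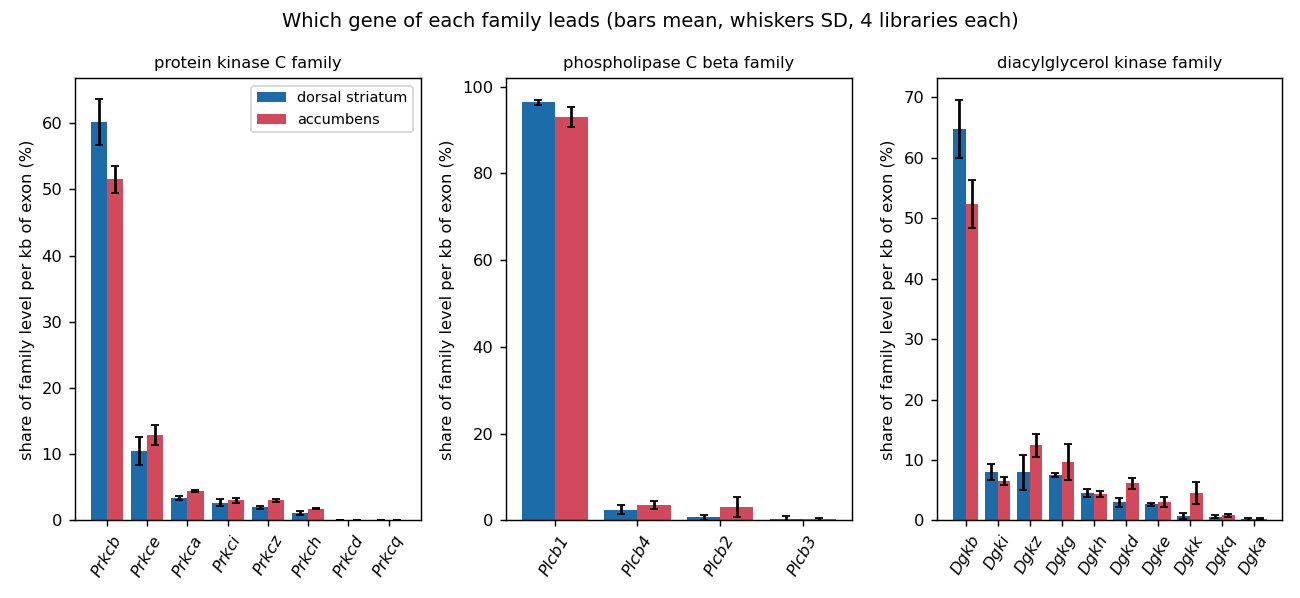
Share of each gene in the summed level of its family, in percent of CPM per kb of exon, over 9 protein kinase C, 4 phospholipase C beta and 10 diacylglycerol kinase genes, of which those reported are drawn. Bars are means of 4 libraries and whiskers SD; Prkcb, Plcb1 and Dgkb lead their families in both regions, each with a lower bar in accumbens.

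The leading isoform of each family was the same in both regions and had a lower mean share in accumbens. Prkcb made up 60.1% ± 3.46 of the summed protein kinase C level in dorsal libraries and 51.5% ± 2.06 of it in accumbens libraries (SD, n = 4). Plcb1 made up 96.4% ± 0.653 and 93.0% ± 2.26 of the phospholipase C beta level. Dgkb made up 64.8% ± 4.84 and 52.3% ± 3.96 of the diacylglycerol kinase level. For each of these 3 the shares did not overlap between regions, and the two-sided exact permutation p over libraries was 0.0286, the smallest that 4 against 4 libraries allow. Prkca, whose level was not called, had a mean share of 3.32% ± 0.297 in dorsal and 4.48% ± 0.181 in accumbens libraries, with the same exact p of 0.0286. Its mean level was not higher in accumbens, at 387 ± 40.7 and 346 ± 26.8 CPM. The shares of a family add up to a whole, so a lower share of Prkcb means a higher combined share of the rest. The share tests thus depend on each other and use the same counts as the calls. Among the 9 shares tested none passed 0.05 after Benjamini-Hochberg adjustment, the lowest exact permutation value being 0.0643.

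The other chosen genes shifted within the spread of their libraries. Prkce went from 10.5% ± 2.09 to 12.9% ± 1.48 of its family (SD of 4 libraries, exact two-sided permutation p = 0.143). Dgkz went from 7.96% ± 2.86 to 12.4% ± 1.86 (exact permutation p = 0.0857), and Dgki from 8.02% ± 1.35 to 6.49% ± 0.676 (exact permutation p = 0.114). Plcb4 held 2.47% ± 1.04 and 3.59% ± 0.928 (exact permutation p = 0.200), and Plcb3 at most 1.39% in any library. The summed level of each family was lower in accumbens without overlap, at 1311 ± 228 and 858 ± 52.9 CPM per kb for protein kinase C, 97.5 ± 12.54 and 61.0 ± 7.53 for phospholipase C beta, and 237 ± 25.8 and 176 ± 12.2 for diacylglycerol kinases. Most of each sum was Prkcb, Plcb1 or Dgkb, so the sums largely restate those calls. The median log2 fold change of the tested genes was -0.22, -0.08 and -0.02 in the 3 families. Of the 10 tested diacylglycerol kinase genes, 5 had a positive and 5 a negative difference.

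**Figure D4:**
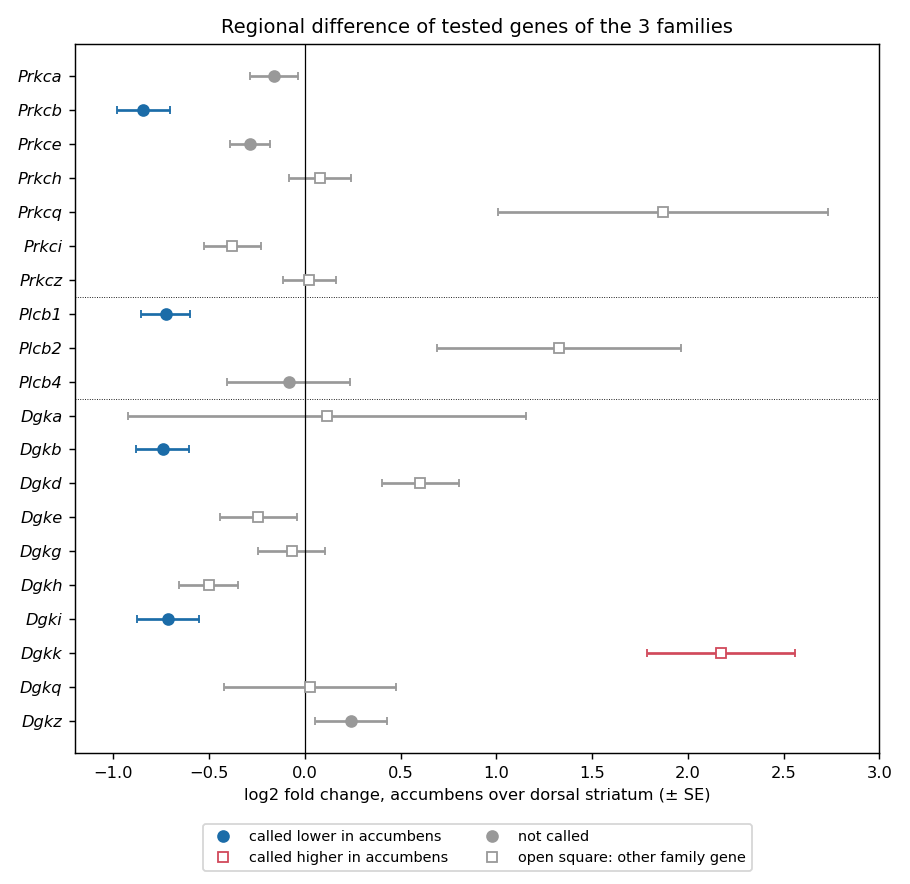
Log2 fold change (accumbens over dorsal striatum, point ± SE, edgeR) of the tested genes of the 3 families that are reported; filled circles are the chosen genes, open squares the rest, blue called lower, red called higher, grey not called. Prkcb, Plcb1, Dgkb and Dgki lie between -0.84 and -0.71, and Dgkk is the sole red point at 2.17.

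Across the whole families, 1 of 8 tested protein kinase C genes (Prkcb), 1 of 3 tested phospholipase C beta genes (Plcb1) and 2 of 10 tested diacylglycerol kinase genes (Dgkb and Dgki) were called lower. A single gene of the families was called higher. This was Dgkk, an X-linked diacylglycerol kinase, at 8.52, 20.9, 4.98 and 16.6 CPM in dorsal and 44.8, 96.2, 49.95 and 40.4 CPM in accumbens libraries (log2 fold change 2.17 ± 0.39 SE, edgeR adjusted p = 0.00240). It went against the direction of Dgkb and Dgki, and its share of the family averaged 0.763% ± 0.466 and 4.54% ± 1.78, which was not tested. Dgkh was at 183 ± 30.4 and 129 ± 15.5 CPM without passing edgeR's test and was called by DESeq2 (log2 fold change -0.50 ± 0.15 SE, edgeR adjusted p = 0.0873, DESeq2 adjusted p = 0.0378). Dgkg, at 164 ± 11.3 and 156 ± 39.2 CPM, and Plcb2, at 4.81 ± 3.68 and 12.1 ± 9.07 CPM, did not pass either test.

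The rest of the pathway was read from lists of genes upstream and downstream of the 3 families. Together with the other family members these lists hold 112 genes besides the 9, of which 96 were tested, 6 were called higher and 6 lower in accumbens, with a median log2 fold change of 0.09. Of those 12 calls, 8 held in each of the 18 alternative analyses. The exceptions were Adra1a, Rasgrp1, Chn1 and Gap43. Counts by other rules are read against their shares over all genes: edgeR's unadjusted p was under 0.05 for 14.8% of genes, DESeq2 called 6.26% of the genes it gave an adjusted p, and limma-voom called 4.17%.

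**Figure D5:**
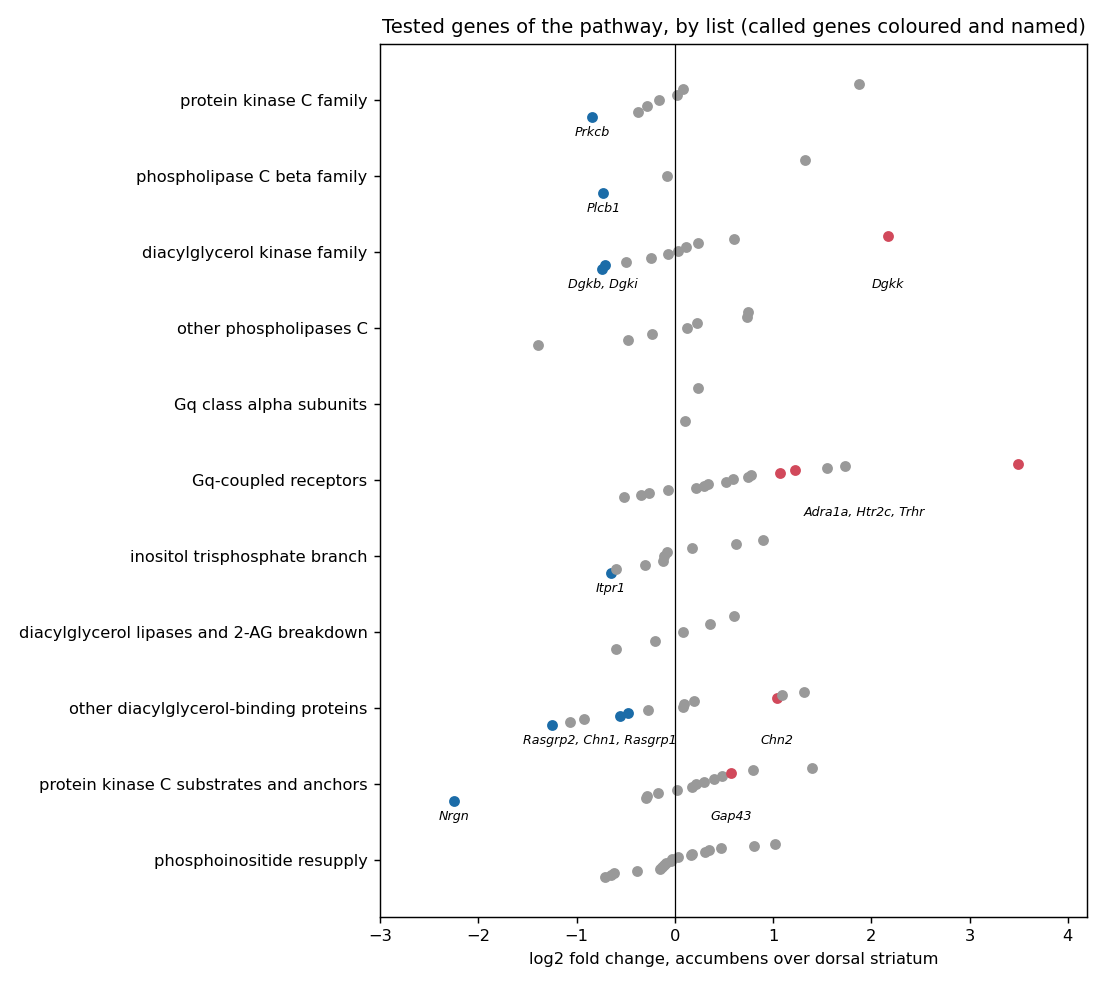
Log2 fold change (accumbens over dorsal striatum, edgeR) of the tested genes that are reported, arranged by list; blue points were called lower and red points higher in accumbens, with their names below, and grey points were not called. The blue points range from Nrgn at -2.25 to Rasgrp1 at -0.48, and the red ones from Gap43 at 0.57 to Trhr at 3.49.

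Upstream, 3 of 17 tested Gq-coupled receptors were called higher. The median log2 fold change of the 17, most of them not called, was 0.52. Summed over the list, levels ran from 826 to 891 CPM in dorsal and from 791 to 996 CPM in accumbens libraries, which overlap. Grm5, a metabotropic glutamate receptor, was not called, at 458 ± 36.0 and 383 ± 75.8 CPM (edgeR adjusted p = 0.416). Htr2c, a serotonin receptor, was higher in accumbens, at 54.6 ± 3.80 and 128 ± 30.0 CPM (log2 fold change 1.22 ± 0.18 SE, edgeR adjusted p = 0.000489). The receptor for thyrotropin-releasing hormone, Trhr, rose from 2.13 ± 1.503 to 24.5 ± 8.07 CPM (3.49 ± 0.60 SE on the log2 scale, edgeR adjusted p = 0.00185). The adrenergic receptor Adra1a went from 18.6 ± 7.05 to 39.2 ± 6.38 CPM (edgeR adjusted p = 0.0364), a call lost when accumbens 1 or 3, dorsal striatum 1, 2 or 3, or accumbens 2 and dorsal striatum 3 together were left out (adjusted p up to 0.126). The muscarinic receptor gene Chrm1, at 129 ± 16.1 and 149 ± 22.3 CPM, was not called. Between receptor and enzyme, neither tested Gq subunit was called, with Gnaq at 285 ± 24.5 and 306 ± 24.3 CPM and Gna11 at 94.5 ± 8.53 and 111 ± 29.6 CPM (edgeR adjusted p = 0.789 and 0.636, no unadjusted p under 0.05, no call by DESeq2 or limma-voom).

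Of the other phospholipases C, none of 7 tested was called by edgeR with the filter and depths used throughout, while 2 had an unadjusted p under 0.05. Plce1, a Ras-linked isoform, went from 40.8 ± 10.1 to 68.2 ± 8.71 CPM without overlap (log2 fold change 0.74 ± 0.21 SE, edgeR adjusted p = 0.0643) and was called by DESeq2 (0.0159) and limma-voom (0.0335), as well as in edgeR's test when no low-count filter was applied (0.0321) or when libraries were thinned to the smallest total (0.0495). Plcl2, a relative without catalytic activity, was at 73.5 ± 4.998 and 86.0 ± 19.4 CPM.

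In the inositol trisphosphate branch, 1 of 9 tested genes was called. This was Itpr1, the main calcium release channel gated by inositol trisphosphate in neurons, which fell from 1901 ± 319 to 1211 ± 64.5 CPM (log2 fold change -0.65 ± 0.12 SE, edgeR adjusted p = 0.00341). The kinase gene Itpka (81.4 ± 4.43 and 74.9 ± 19.5 CPM) and the inositol phosphatase gene Impa1 (46.1 ± 5.72 and 37.2 ± 2.56 CPM) were not called.

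Diacylglycerol has other protein partners, and 4 of 12 tested ones were called, 3 lower and 1 higher. Rasgrp1 and Rasgrp2, which activate Ras-family GTPases, fell from 1753 ± 124 to 1258 ± 77.8 CPM and from 69.0 ± 11.01 to 29.0 ± 5.86 CPM (log2 fold changes -0.48 ± 0.10 and -1.25 ± 0.21 SE, edgeR adjusted p = 0.0104 and 0.00167). The chimaerins, which switch off the GTPase Rac, went opposite ways. Chn1 fell from 1229.8 ± 98.0 to 838 ± 90.2 CPM and Chn2 rose from 92.3 ± 8.22 to 189.6 ± 30.5 CPM (log2 fold changes -0.55 ± 0.11 and 1.04 ± 0.15 SE, edgeR adjusted p = 0.00744 and 0.000567). With the glial covariate Rasgrp1 (edgeR adjusted p = 0.167) and Chn1 (0.103) were no longer called. The vesicle-priming genes Unc13c (307 ± 50.3 and 328 ± 36.7 CPM) and Unc13a (239 ± 55.1 and 252 ± 43.2 CPM) were not called.

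Among 13 tested substrates and anchors of protein kinase C, the neuronal substrates Nrgn and Gap43, which both bind calmodulin, were called in opposite directions. Nrgn (neurogranin) was at 459, 279.8, 419 and 584 CPM in dorsal and 83.0, 101, 109.9 and 71.8 CPM in accumbens libraries, a log2 fold change of -2.25 ± 0.20 SE (edgeR adjusted p = 4.65e-06). Gap43, a growth cone protein, rose from 376 ± 63.0 to 559 ± 83.0 CPM (log2 fold change 0.57 ± 0.14 SE, edgeR adjusted p = 0.0311). Its call was lost with the glial covariate (0.402) and when any library other than dorsal striatum 2 or accumbens 2 was left out (0.0506 to 0.113). The kinase anchor Akap5 (1794 ± 229 and 1467 ± 98.7 CPM) and the substrate gene Add2 (543 ± 56.8 and 549 ± 75.8 CPM) were not called.

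The enzymes that divert or renew the lipids showed no call in edgeR. Of 5 tested genes for diacylglycerol lipases and breakdown of the endocannabinoid 2-AG, 1 had an unadjusted p under 0.05 and neither DESeq2 nor limma-voom called any. Dagla, which makes 2-AG from diacylglycerol, was at 89.4 ± 19.1 and 77.8 ± 27.8 CPM, and the 2-AG hydrolase gene Abhd12 at 79.6 ± 13.4 and 84.3 ± 13.95 CPM. Of 18 genes of phosphoinositide resupply, 6 had an unadjusted p under 0.05, against 14.8% of all genes, and DESeq2 called 4, against 6.26%, where limma-voom called 0. The most abundant, Pi4ka (487 ± 48.0 and 498 ± 68.7 CPM) and Pip4k2b (463 ± 48.4 and 428 ± 98.3 CPM), had log2 fold changes of 0.03 and -0.11.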

How the data were processed

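RNA bound to tagged ribosomes was captured and sequenced, and the authors deposited a raw count for each gene symbol, with no normalization. Per the submitters' processing notes, STAR 2.0.0e and HTSeq were used with the mm10 genome; the annotation, strand setting and read filters are not given in the sources used here, so reads of a gene and of a gene overlapping it on the opposite strand may not be told apart. Such overlaps cover 30 exon bases of Prkca, 178 of Plcb1, 22 of Plcb3 and 222 of Dgkz, and 472 bases of Prkce overlap an unconfirmed transcript on the same strand. Totals of reads with no single gene, 27.1% to 40.6% of counted reads per library (31.6% ± 3.05 in the dorsal and 37.5% ± 2.22 in the accumbens libraries, SD, n = 4), were left out. No pair of the 28 pairs of libraries agreed within sampling noise.

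Libraries were placed in regions by title. Regions were compared with the quasi-likelihood F test of edgeR 4.0.16 (R 4.3.3, TMM-normalized libraries, genes kept by filterByExpr at minimum count 10), with region alone in the model. A call is an adjusted p (Benjamini-Hochberg) under 0.05. SE is the log2 fold change divided by the root of F. CPM were computed on TMM-scaled sizes, with a prior count of 2 on the log2 scale. The common biological coefficient of variation was 0.415, and it was 0.129 to 0.330 for the 8 genes. Exon lengths are unions of GENCODE M21 exons (GRCm38, 1-based). The test was tried on simulated counts first.

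The 9 genes and all lists were chosen with earlier results of these data known. Named were the 9, every called gene of the lists, per list up to 2 uncalled genes of the highest mean CPM, and the 3 genes most like Prkcb, which has both the smallest adjusted p and the highest mean CPM. Some genes that this rule takes enter the counts and sums but are not reported here. Alternatives were RLE and upper-quartile factors, no filter, a filter of at least 1 CPM in 4 libraries, DESeq2 1.42.0, limma-voom (limma 3.58.1), the replicate number as a block, a glial marker covariate, thinning to the smallest library, and leaving out libraries. The limma-voom fit weighted each library by its estimated quality.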

Additional observations from a re-analysis of the deposited data

Results flagged for a closer look

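Within each region the highest and lowest of the 4 values were compared with the rest for 41 genes, 82 groups in all, and in 3 of them a library stood apart by Dixon's criterion, which chance meets in about 1 group in 20. Plcb3 was at 11.1 CPM in dorsal striatum 3 and between 0 and 0.849 CPM in the other dorsal libraries. Htr2c was at 60.2 CPM in dorsal striatum 1 and between 52.0 and 53.3 CPM in the others. Rasgrp2 was at 37.7 CPM in accumbens 3 and between 25.1 and 26.6 CPM in the other accumbens libraries.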

How the results depend on the processing

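Over all genes, 464 were called. DESeq2 called 763, an unfiltered edgeR fit 696, and the glial marker covariate left 196, with 2 of the 9 genes called in place of 4. Leaving out each library in turn gave 324 to 411 calls and 3 or 4 of the 9 genes, and omitting accumbens 2 together with dorsal striatum 3 gave 330 and 4. With the replicate number as a block, 432 genes and 4 of the 9 were called (Prkcb -0.82, Plcb1 -0.73, Dgkb -0.74 and Dgki -0.72 on the log2 scale). Deviations of same-numbered libraries correlated at 0.014, -0.081, -0.043 and -0.035, no library correlated best with its own number, and the numbers were not taken as pairs. Differences near 0 changed sign: Dgkg with limma-voom (0.037) and without both of those libraries (0.12), Unc13a with limma-voom (-0.058) and the covariate (-0.11), Add2 with limma-voom (-0.085), the covariate (-0.033) and without both libraries (-0.038), Pi4ka with limma-voom (-0.060) and without both libraries (-0.062), Itpka without both libraries (0.041), and Pip4k2b with the covariate (0.089). With single libraries left out, Plcb4 ranged from -0.25 to 0.17, Dgkg from -0.17 to 0.086, Unc13a from -0.066 to 0.18, Add2 from -0.069 to 0.087, Pi4ka from -0.055 to 0.11, Abhd12 from -0.031 to 0.18 and Itpka from -0.29 to 0.018. Without division by exon length the share of Prkca differed by 1.67 percentage points in place of 1.17. The cause of these changes was not tested. At 3 counts, or 0.237 to 0.402 CPM on unscaled totals, the depth limits what can be said of Plcb3.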
